A study of Mus musculus with 6 samples.

Results

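Genes of the renin-angiotensin and natriuretic peptide systems were followed through single cells of embryonic mouse skin. The 9 genes, Ren1, Agtr2, Agt, Ace, Atp6ap2, Nppc, Npr1, Npr2 and Npr3, were taken by symbol and all 9 were found among 27998 genes. Ren1, Agtr2 and Nppc had been picked for their high values in early dermal cells of these same libraries, so their levels by stage and by cell class are a description with no test. The other 6 were added as partners in the same pathways.

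The libraries counted unique molecular identifiers (UMIs) at the 3′ ends of transcripts of cells from flank and dorsolateral skin on a CD1 background. LOF embryos were PDGFRalphaCreER(Lo);beta-catfl/fl;mTmG: tamoxifen, given at E11.5, lets a Cre driven by the promoter of a fibroblast receptor delete beta-catenin and switch a membrane reporter from Tomato to GFP. There was 1 LOF library at embryonic day (E) 14.5 and 1 at E13.5, and 2 control libraries, labelled WT, at each stage. Each library pooled 3 to 4 embryos, and nothing says that replicates came from separate litters, so p-values measure only the spread between libraries. Tamoxifen is recorded only for LOF, so drug and genotype cannot be told apart.

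In the renin-angiotensin system the protease renin cuts angiotensinogen to angiotensin I, and angiotensin-converting enzyme turns that into angiotensin II. Angiotensin II acts through a constrictor receptor, type 1, and through the type 2 receptor, which is abundant in fetal mesenchyme. Natriuretic peptides act through receptors that make cyclic GMP: Npr1 answers the cardiac peptides ANP and BNP, Npr2 answers C-type natriuretic peptide (CNP, the product of Nppc), and Npr3 binds the peptides and clears them.

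Ren1 (ENSMUSG00000070645) lies on chromosome 1 from 133350510 to 133360325, plus strand, in GRCm38. Nppc (ENSMUSG00000026241) lies on the same chromosome from 86666291 to 86670571, minus strand, and Agtr2 (ENSMUSG00000068122) on chromosome X from 21484544 to 21489164, plus strand. Ace, Npr1, Npr2 and Npr3 each have a non-coding gene on the opposite strand, and the strand setting of the counting is not given in the sources used here. Some mouse strains carry a near-identical copy of the renin gene, whose reads cannot be told apart from those of Ren1. All 9 genes had a promoter window in RefSeq (GRCm38.p6), from 250 bases before to 50 after the start. The windows of the 3 dermal genes are shown because these genes are compared between embryos with and without deletion of beta-catenin, the partner of TCF and LEF factors. Capitals mark TATAAA, the TATA box, and CTTTGA, a core of the TCF and LEF motif, on either strand.
Ren1 promoter (chr1:133350424-133350723, plus strand): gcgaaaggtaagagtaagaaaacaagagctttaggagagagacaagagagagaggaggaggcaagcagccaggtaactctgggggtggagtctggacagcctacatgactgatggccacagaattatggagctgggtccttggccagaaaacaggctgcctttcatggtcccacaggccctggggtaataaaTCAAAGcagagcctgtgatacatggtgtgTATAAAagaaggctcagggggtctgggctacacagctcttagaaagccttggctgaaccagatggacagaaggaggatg
Nppc promoter (chr1:86670524-86670823, minus strand): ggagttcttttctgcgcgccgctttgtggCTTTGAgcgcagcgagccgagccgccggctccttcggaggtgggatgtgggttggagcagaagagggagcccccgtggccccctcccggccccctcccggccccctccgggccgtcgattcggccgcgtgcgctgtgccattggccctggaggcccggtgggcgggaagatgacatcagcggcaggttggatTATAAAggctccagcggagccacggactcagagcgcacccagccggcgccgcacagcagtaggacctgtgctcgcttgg
Agtr2 promoter (chrX:21484374-21484673, plus strand): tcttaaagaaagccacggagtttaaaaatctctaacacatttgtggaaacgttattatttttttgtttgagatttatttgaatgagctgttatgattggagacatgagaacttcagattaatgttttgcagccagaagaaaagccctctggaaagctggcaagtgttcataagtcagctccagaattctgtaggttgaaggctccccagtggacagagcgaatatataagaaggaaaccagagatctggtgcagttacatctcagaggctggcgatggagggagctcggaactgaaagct
Ren1 and Nppc each had TATAAA with its first base at -29 from the start. Each also held 1 TCF and LEF core, at -58 on the reverse strand in Ren1 and at -221 on the forward strand in Nppc, and the Agtr2 window held neither run of letters. Of 32851 mouse windows of this length, 13.6% held TATAAA and 16.0% held CTTTGA on either strand, so a match describes the letters and is not a site.

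The libraries held 53461986 to 86446575 UMIs, and 40653 of 41594 barcodes were kept. Fibroblasts were cells with at least 15 UMIs of Col1a1, Col1a2 and Col3a1 and no other class, 22631 in all and 2812 to 4500 per library. The fibroblast genes Pdgfra, Lum, Twist2 and Dpt were highest in this class and Postn ranked 2. Levels are UMIs per 1000000 UMIs of a class (CPM). Cells just inside the gate, with 15 to 19 collagen UMIs, had Agtr2 at 33.3 to 328 CPM, and cells just outside, with 10 to 14, at 12.4 to 301 CPM. Pairs of libraries shared 45 to 103 barcodes.

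Labels and reporter reads did not match in every library. eGFP in fibroblasts was at 323 CPM in E14.5 LOF, against 5.35 and 92.9 CPM in E14.5 controls 1 and 2. It was at 352 CPM in E13.5 LOF, against 3.04 and 119 CPM in E13.5 controls 1 and 2. Both replicate 2 controls, though labelled WT, thus held eGFP reads, and the genotype fits are also given without them. E13.5 control 1 held reporter reads too, with tdTomato in keratinocytes at 1020 CPM, beside 822 CPM in E13.5 control 2. It is therefore not a reference free of reporter reads, and which alleles the controls carried was not tested. Lnpep, an aminopeptidase gene of the pathway, was at 21.5 CPM in E14.5 LOF and 21.9 CPM in E14.5 control 1, while the remaining 4 libraries had 2.12 to 3.51 CPM. No label names a batch. From such splits 3 batches of 2 were inferred, namely E14.5 LOF with E14.5 control 1, E13.5 LOF with E13.5 control 1, and both replicate 2 controls. The eGFP reads set the replicate 2 controls apart and Lnpep the E14.5 pair, whereas the E13.5 pair is only what remained. Under this inference, which was not tested, each LOF library shares a batch with control 1 of its stage. The ratio to control 1 is therefore given for the members compared.

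**Figure D1:**
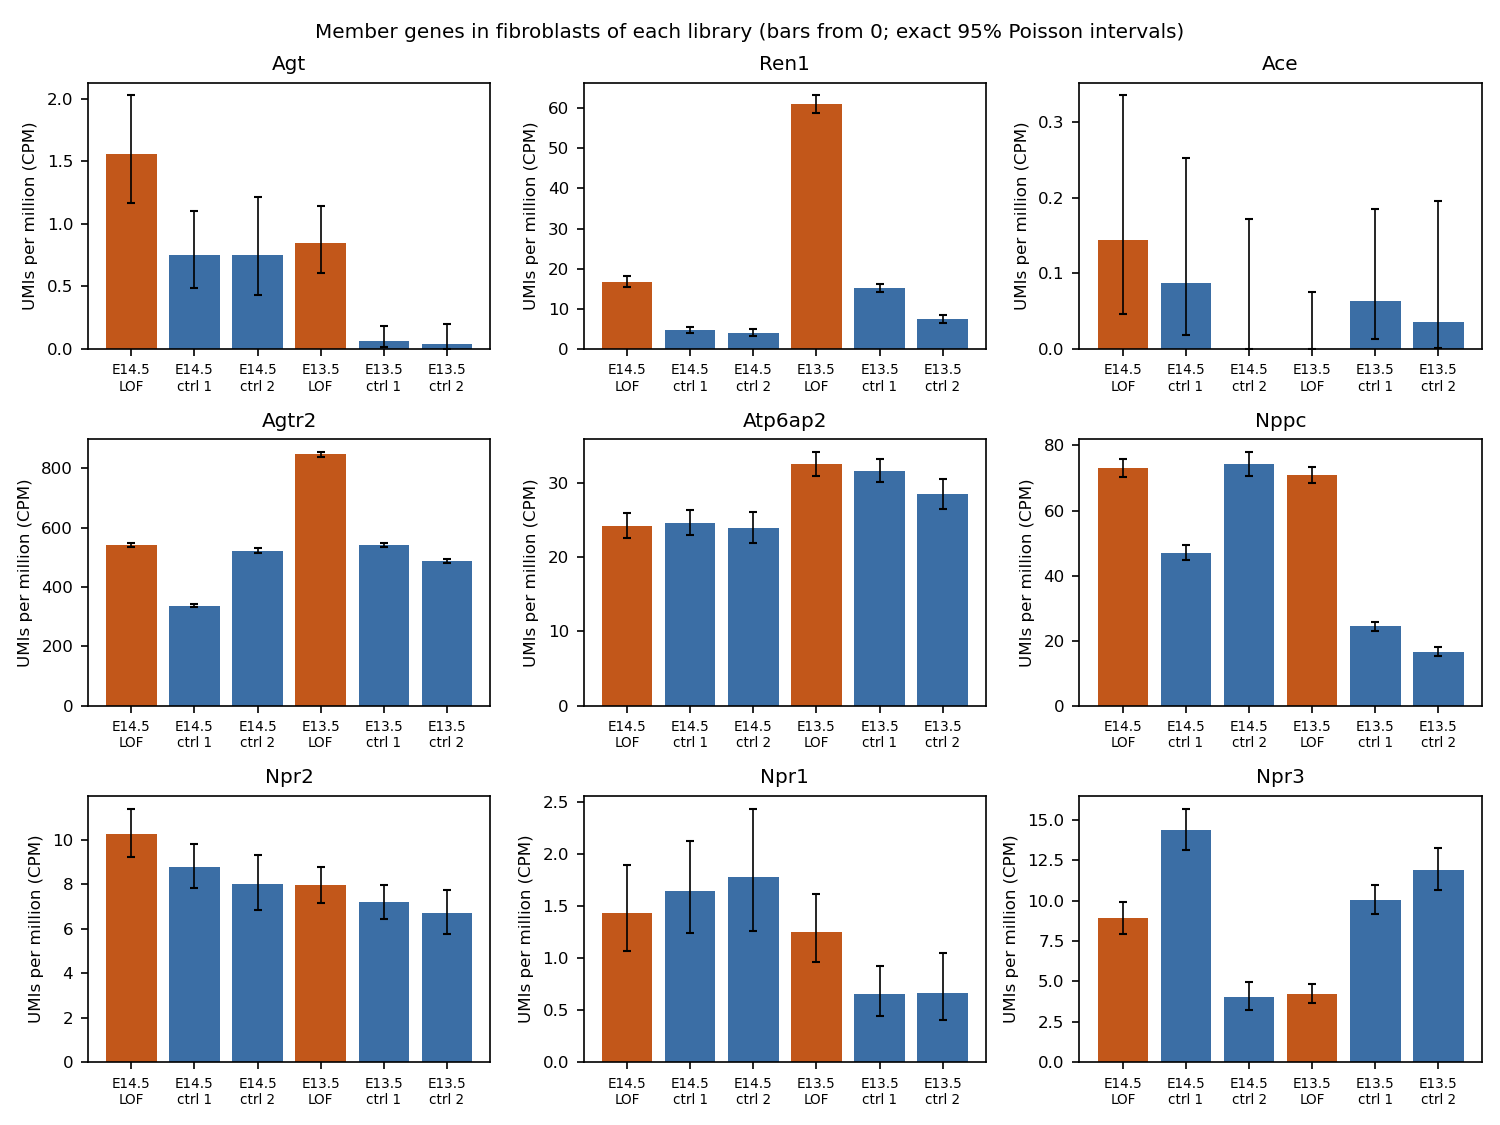
CPM (y axes from 0) of each member in fibroblasts of the 6 libraries (x axes), LOF in orange and controls in blue. Error bars are exact 95% Poisson intervals that cover counting error only. The Ren1 bars of LOF, at 16.6 and 61.00 CPM, stand above both controls of their stage.

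Ren1, the gene for renin, was higher in LOF fibroblasts than in every control of the same stage. It stood at 16.6 CPM in E14.5 LOF, against 4.71 and 3.98 CPM in the E14.5 controls. It stood at 61.00 CPM in E13.5 LOF, against 15.1 and 7.34 CPM in the E13.5 controls. How many of all genes have LOF above both controls at each stage was not counted, here or for the other genes below. The order alone is therefore not read as a result. The ratio to control 1, with its 95% interval for counting error only, was 3.53 (2.97 to 4.23) at E14.5 and 4.03 (3.71 to 4.38) at E13.5. Ren1, Agtr2 and Nppc were picked from libraries that include LOF, and E13.5 LOF held 2960 of the 4711 Ren1 UMIs of fibroblasts. Their genotype tests, in edgeR or DESeq2, are therefore not independent of the pick and lend no support. In edgeR's quasi-likelihood test over both stages the log2 fold change of LOF over control for Ren1 was 2.16 (SE 0.29, adjusted p = 0.299). That fit called 0 of 14911 genes, or 0%, with 1226 at an unadjusted p under 0.05, and 8 of the 9 members passed its filter on low counts, all but Ace. DESeq2 called 274 genes, among them Ren1 (adjusted p = 1.92e-07). With the inferred batch as a term edgeR gave 1.94, and without both replicate 2 controls also 1.94. Both fits rest on LOF against control 1 of its stage, so they are 1 comparison, and the batch was inferred from these data. Over all alternatives run the fold change was 1.87 to 2.41 and the edgeR or DESeq2 adjusted p 1.92e-07 to 0.929.

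More fibroblasts held Ren1 in LOF. With every cell thinned to 3000 UMIs, 3.17% of E14.5 LOF fibroblasts had a Ren1 UMI, against 1.12% and 0.734% in the E14.5 controls. At E13.5 the share was 9.98% in LOF, against 3.13% and 1.83% in controls. Unthinned shares were 5.37% and 17.4% in E14.5 and E13.5 LOF, and 1.14% to 6.04% in the controls. The shares of all 6 libraries were above those of keratinocytes, in which 0% to 0.182% of thinned cells had a Ren1 UMI, at median depths of 9946 to 15603 UMIs against 7278 to 10167 in fibroblasts. Thinning left out 102 fibroblasts of E14.5 LOF, 89 of E14.5 control 2 and 17 of E13.5 control 2.

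Fibroblasts rich in Ren1 were a larger share in LOF at both stages. Cells with at least 5 Ren1 UMIs made up 0.735% of fibroblasts in E14.5 LOF, against 0.341% and 0.178% in its controls. At E13.5 they made up 4.73% in LOF, against 0.844% and 0.394%.

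Agt, the gene for angiotensinogen, the substrate of renin, was scarce, with 141 UMIs in all fibroblasts. It had 54 UMIs in E14.5 LOF, against 26 and 16 in the E14.5 controls, and 41 UMIs in E13.5 LOF, against 3 and 1 in the E13.5 controls. LOF exceeded both controls at each stage. The ratio to control 1 was 2.07 (1.27 to 3.44) at E14.5 and 13.3 (4.25 to 67.3) at E13.5, which rests on 3 control UMIs. The log2 fold change over both stages was 2.20 (SE 0.66, edgeR adjusted p = 0.458), and 0.98 without E13.5 LOF.

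Agtr2, the angiotensin type 2 receptor, was found in a large share of fibroblasts. It was at 541 CPM in E14.5 LOF, against 337 and 522 CPM in its controls, and at 847 CPM in E13.5 LOF, against 540.4 and 487 CPM. LOF was above both controls at each stage, but its ratio to E14.5 control 2 was only 1.04 (1.01 to 1.06). The ratio to control 1 was 1.61 (1.57 to 1.64) at E14.5 and 1.57 (1.54 to 1.59) at E13.5. Over both stages the log2 fold change was 0.47 (SE 0.26, edgeR adjusted p = 0.751). It was 0.68 with the batch term and 0.68 without both replicate 2 controls, which is again 1 comparison, LOF against control 1.

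The share of thinned fibroblasts with an Agtr2 UMI was 60.5% in E14.5 LOF, against 39.8% and 45.2% in its controls. It was 71.5% in E13.5 LOF, against 58.3% and 60.7%. Keratinocytes, a class in which free RNA can give such reads, had 0.871% to 6.65%, the highest value also in E13.5 LOF.

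Atp6ap2, the prorenin receptor and an accessory subunit of the vacuolar proton pump, had LOF to control ratios of 0.983 to 1.14. It was at 24.2 CPM in E14.5 LOF, against 24.6 and 23.9 CPM, and at 32.5 CPM in E13.5 LOF, against 31.6 and 28.5 CPM. Its log2 fold change was 0.00 (SE 0.16, edgeR adjusted p = 0.996), with a sign that flips with DESeq2 or RLE scaling. Ace, angiotensin-converting enzyme, had 5 UMIs in E14.5 LOF fibroblasts, against 3 and 0 in its controls, and 0 in E13.5 LOF, against 3 and 1, too few to compare.

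**Figure D2:**
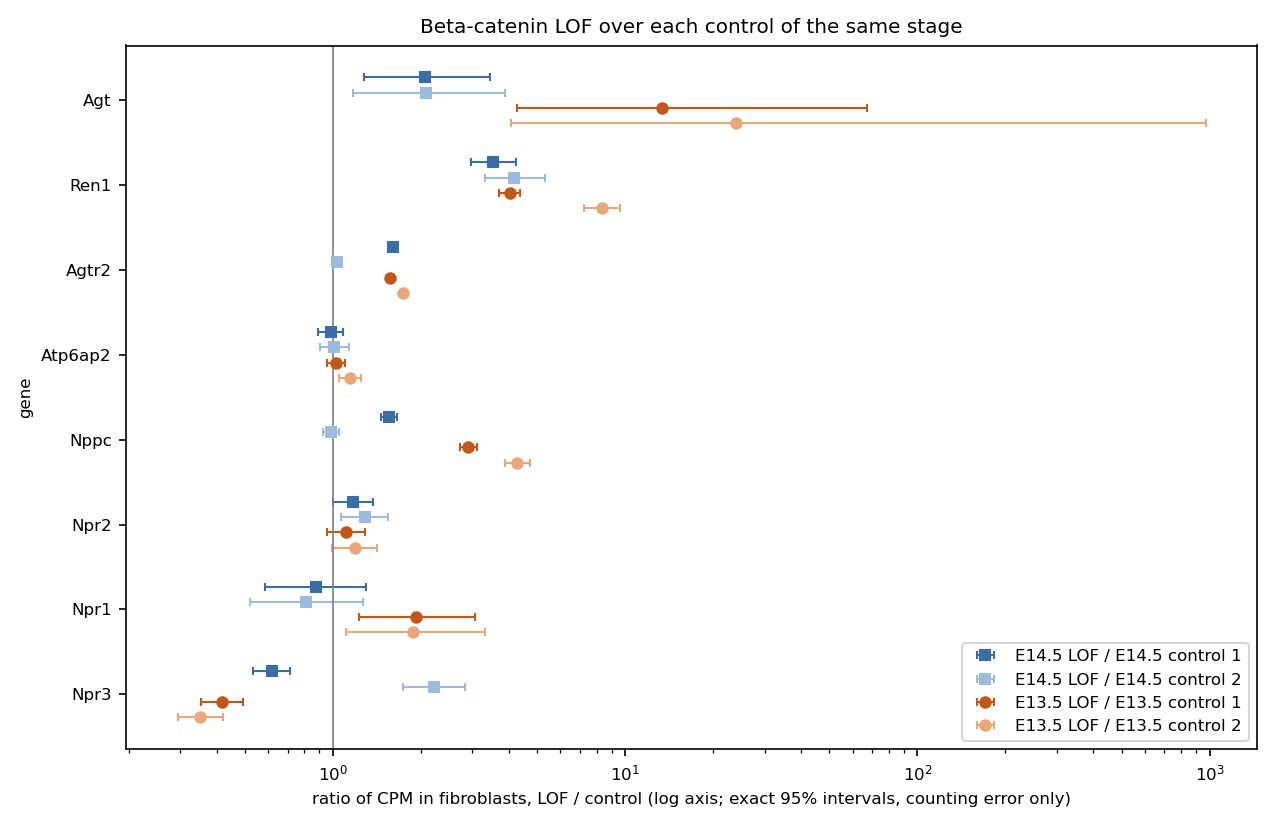
Ratio of CPM in fibroblasts, LOF over each control of the same stage, on a log axis, for 8 members (rows), with exact 95% intervals for counting error only. The Ren1 ratios lie between 3.53 and 8.31, those of Atp6ap2 close to 1, and those of Npr3 on both sides of 1.

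Nppc, the gene for CNP, was above both controls in LOF at E13.5 and not at E14.5. It was at 73.02 CPM in E14.5 LOF, against 47.04 and 74.3 CPM in its controls, and at 70.8 CPM in E13.5 LOF, against 24.4 and 16.6 CPM. At E14.5 LOF lay between its controls. The ratio to control 1 was 1.55 (1.46 to 1.65) at E14.5 and 2.91 (2.72 to 3.11) at E13.5. Over both stages the log2 fold change was 1.04 (SE 0.43, edgeR adjusted p = 0.603), and 0.17 without E13.5 LOF. The share of thinned fibroblasts with a Nppc UMI was 12.6% in E14.5 LOF, against 7.76% and 10.5%, and 11.6% in E13.5 LOF, against 4.40% and 3.60%, with 0.275% to 1.46% in keratinocytes.

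Npr2, the CNP receptor, was at 10.3 CPM in E14.5 LOF, against 8.78 and 8.01 CPM, and at 7.95 CPM in E13.5 LOF, against 7.18 and 6.70 CPM. LOF was above both controls at each stage by ratios of 1.11 to 1.28, without a call (log2 0.19, SE 0.16, edgeR adjusted p = 0.813). Npr1 was at 1.44 CPM in E14.5 LOF, against 1.65 and 1.78 CPM, and at 1.26 CPM in E13.5 LOF, against 0.655 and 0.670 CPM. LOF lay below both controls at E14.5 and above both at E13.5 (log2 0.31, SE 0.38, edgeR adjusted p = 0.839).

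Npr3, the clearance receptor, was at 8.90 CPM in E14.5 LOF, against 14.4 and 4.03 CPM, and at 4.20 CPM in E13.5 LOF, against 10.03 and 11.9 CPM. E13.5 LOF was below both of its controls, whereas E14.5 LOF lay between its controls (log2 -0.70, SE 0.53, edgeR adjusted p = 0.808). The ratio to control 1 was 0.619 (0.535 to 0.714) at E14.5 and 0.419 (0.354 to 0.495) at E13.5, below 1 at both stages. E14.5 LOF and E14.5 control 1, the pair high in Lnpep, were also the highest for Npr3 in Schwann cells, at 341 and 259 CPM, with 85.2 to 103 CPM in the other 4 libraries. In keratinocytes the pair had 14.7 and 15.1 CPM and the other 4 libraries 7.95 to 9.73 CPM. The part of an inferred batch in these values was not tested.

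Stage was compared in the 4 controls for the members not picked by their early levels. Agt was at 0.751 and 0.749 CPM in the E14.5 controls, against 0.0634 and 0.0353 CPM in the E13.5 controls. Those values rest on 26 and 16 UMIs at E14.5, against 3 and 1 at E13.5, so Agt passed the filter on low counts through the E14.5 controls and no test is given. The edgeR fit over all genes called 0 of 14320 genes, or 0%, with 2501 at an unadjusted p under 0.05, and DESeq2 called 895. Npr1 was at 1.65 and 1.78 CPM at E14.5, against 0.655 and 0.670 CPM at E13.5, with no overlap but no call (log2 1.40, SE 0.41, edgeR adjusted p = 0.192). Npr3 had a log2 fold change of -0.27 (SE 0.53, edgeR adjusted p = 0.808), and 0.31 without E14.5 control 2. Over all alternatives run it was -1.47 to 0.31, with an edgeR or DESeq2 adjusted p of 0.0322 to 0.9999. Atp6ap2 (-0.28, adjusted p = 0.542) and Npr2 (0.30, adjusted p = 0.546) had no call in edgeR.

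The 3 genes picked together had different courses between stages in controls. Ren1 was lower at E14.5, at 4.71 and 3.98 CPM, against 15.1 and 7.34 CPM at E13.5. Nppc was higher at E14.5, at 47.04 and 74.3 CPM, against 24.4 and 16.6 CPM at E13.5. The ranges of Agtr2 overlapped.

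Other genes of the pathways, from lists chosen with earlier results known, had no call by genotype or stage in edgeR. By genotype, 6 of 13 renin-angiotensin genes tested had a positive log2 fold change, with a median of -0.04. Of 13 natriuretic peptide and cyclic GMP genes, 13 were positive, with a median of 0.43, beside a median of 0.02 over all genes. The share of positive genes over all genes was not counted, so these counts are not read as a shift of a pathway. By stage the counts were 6 of 13 and 8 of 13, with medians of -0.15 and 0.45. Agtr1a, the constrictor type 1 receptor, was at 18.01 CPM in E14.5 LOF, against 15.1 and 15.9 CPM, and at 6.56 CPM in E13.5 LOF, against 6.95 and 4.66 CPM. Its E14.5 values were all above its E13.5 values (log2 1.45 in controls, edgeR adjusted p = 0.106). Nppa and Nppb, the genes for ANP and BNP, were at 0 to 0.0353 and 0.253 to 0.660 CPM in fibroblasts.

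The members were spread over different cell classes of the skin. By UMIs summed over libraries, Ren1, Nppc and Agtr2 were highest in fibroblasts, Npr1 and Ace in endothelial cells, Npr3 in Schwann cells and Atp6ap2 in macrophages. Agt was at 1.12 CPM in pericytes, from 7 UMIs, and 0.656 CPM in fibroblasts, from 141 UMIs, and pericytes had none in the E13.5 controls. Npr2 was at 11.95 CPM in melanoblasts, from 15 UMIs, and 8.13 CPM in fibroblasts, from 1748 UMIs. The pericyte and melanoblast values rest on few UMIs. Classes other than fibroblasts were called from at least 3 markers and 8 marker UMIs.

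**Figure D3:**
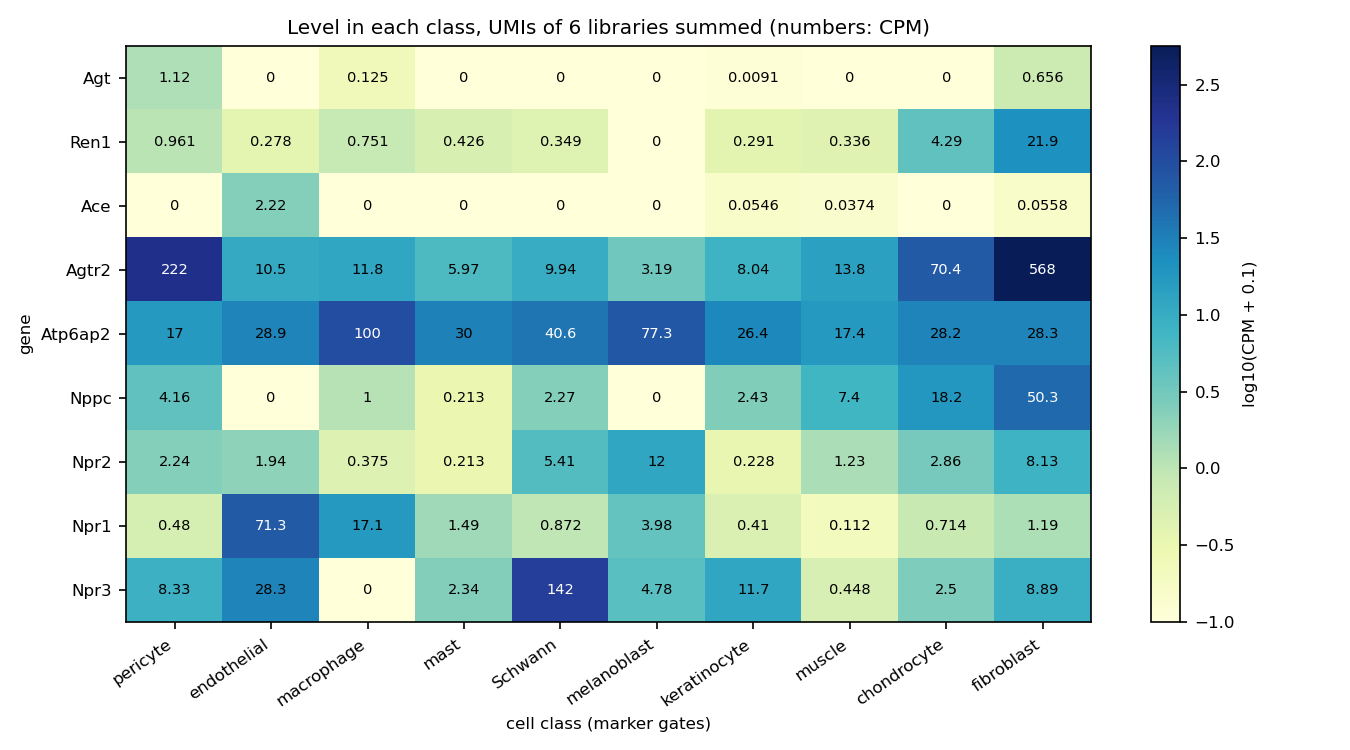
Level of each member (rows) in 10 cell classes (columns), as CPM from the UMIs of all 6 libraries summed, written in the cells and coloured on a log10 scale. Npr1 is highest in endothelial cells at 71.3 CPM, Npr3 in Schwann cells at 142 CPM, and Agtr2 in fibroblasts at 568 CPM.

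Npr1 marked the endothelium in every library. It was at 67.6, 55.8 and 141 CPM in endothelial cells of E14.5 LOF and E14.5 controls 1 and 2, and at 56.2, 55.96 and 90.5 CPM in those of E13.5 LOF and E13.5 controls 1 and 2. Fibroblasts had 0.655 to 1.78 CPM, with no overlap. The log2 fold change of endothelial cells over fibroblasts was 5.88 (SE 0.26, edgeR adjusted p = 7.96e-21), higher in 6 of 6 libraries, in a contrast that called 48.6% of 14114 genes, with a median of -0.22 over all genes. Macrophages came next, at 8.37 to 25.7 CPM, below every endothelial value.

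Ace is best known from endothelium and had 8 UMIs in 293 endothelial cells. That came to 1.25, 3.99 and 6.87 CPM in E14.5 LOF and E14.5 controls 1 and 2, to 2.16 CPM in E13.5 LOF, and to 0 in both E13.5 controls, where a count of 0 allows up to 6.99 and 4.85 CPM. Fibroblasts held 12 UMIs in 22631 cells. Ace passed the filter on low counts only through endothelial cells, so no test is given.

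Npr2 had 7 UMIs in endothelial cells, 25 in keratinocytes and 1748 in fibroblasts. In the contrast with endothelial cells its total count passed the filter on low counts through fibroblasts, so no test is given. Endothelial cells of 3 libraries had no Npr2 UMI. A count of 0 allows up to 2.99 CPM in E14.5 control 1, and 6.99 and 4.85 CPM in E13.5 controls 1 and 2. In the contrast with keratinocytes Npr2 passed the filter only through fibroblasts, so no test is given there either. Its levels were 0 to 6.87 CPM in endothelial cells, 0.147 to 0.333 CPM in keratinocytes and 6.70 to 10.3 CPM in fibroblasts. Melanoblasts, at 0 to 20.8 CPM, spanned the range of fibroblasts. Nppc, whose product is the ligand of Npr2, had no UMI in endothelial cells of any library.

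Npr3 was at 85.2 to 341 CPM in Schwann cells, and 15.5% to 52.7% of them had an Npr3 UMI after thinning. In endothelial cells it was at 58.9, 28.9 and 13.7 CPM in E14.5 LOF and E14.5 controls 1 and 2, and at 12.97, 32.6 and 3.23 CPM in the E13.5 libraries in the same order. The change of endothelial cells over fibroblasts was 1.40 (SE 0.44, edgeR adjusted p = 0.0267), but in E13.5 control 2 it was lower in endothelial cells, at 3.23 CPM, than in fibroblasts, at 11.9 CPM. The edgeR call was lost without E13.5 control 1 (1.32, adjusted p = 0.0938), without E14.5 control 2 (1.39, adjusted p = 0.0886), without E13.5 LOF (1.38, adjusted p = 0.0866) and with the collagen gate at 30 UMIs (1.41, adjusted p = 0.0630). Leaving out E14.5 LOF gave 0.93. Macrophages had no Npr3 UMI.

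Atp6ap2 was at 67.2 to 128 CPM in macrophages and 37.9 to 129 CPM in melanoblasts, which overlapped, and at 23.9 to 32.5 CPM in fibroblasts. Neither endothelial cells (log2 0.04, SE 0.17, edgeR adjusted p = 0.861) nor keratinocytes (0.07, SE 0.07, adjusted p = 0.332) passed the test against fibroblasts.

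Keratinocytes had little of most members. Agt had 1 UMI in 9286 keratinocytes, with 0 in 5 of 6 libraries, and 141 UMIs in fibroblasts. It passed the filter on low counts only through fibroblasts, so no test is given. Npr1 had a log2 fold change of keratinocytes over fibroblasts of -1.52 (SE 0.28, edgeR adjusted p = 0.00133), in a contrast that called 73.2% of 15205 genes. Npr3 was at 7.95 to 15.1 CPM in keratinocytes and 4.03 to 14.4 CPM in fibroblasts (0.47, SE 0.22, edgeR adjusted p = 0.0825).

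Pericytes, the contractile cells around small vessels, were 11 to 133 cells per library and were not tested because E13.5 control 2 held only 11. Agtr2 was at 194, 161 and 165 CPM in pericytes of E14.5 LOF and E14.5 controls 1 and 2, and at 368, 358 and 134 CPM in the E13.5 libraries in the same order, below the fibroblasts of each library. Pericytes were kept whatever their collagen UMIs, so those caught together with a fibroblast were not taken out. Their median depths were 11975 to 19774 UMIs, against 7278 to 10167 in fibroblasts. The part of such mixtures in the Agtr2 values was not tested. Ren1, which pericyte-like cells make in kidney, had 6 UMIs in all pericytes. Agtr1a was at 49.5 CPM over all pericytes and 10.6 CPM over all fibroblasts, and Gucy1a3, a subunit of the soluble guanylate cyclase, at 494 and 6.69 CPM in the same order.

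Of the listed pathway genes, 2 of 13 renin-angiotensin genes were higher and 5 lower in endothelial cells than in fibroblasts, beside the 48.6% called over all genes. Prcp, a carboxypeptidase that can cut angiotensin II, was higher (log2 3.60), as was the protease gene Ctsd (0.84), and Agtr1a, Mme, Anpep and Enpep were among those lower. Of 12 natriuretic peptide and cyclic GMP genes, 3 were higher and 7 lower, and Pde2a, a phosphodiesterase that cyclic GMP activates, was higher by 6.75. In keratinocytes 4 and 2 genes of these lists were higher and 7 and 8 lower, of 13 tested in each, beside the 73.2% called over all genes.

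Ren1 and Nppc were seldom detected in the same fibroblast. After thinning, 0 of 13728 control fibroblasts had UMIs of both, where the product of the shares gives 13.3 cells, and a count of 0 allows up to 0.0219% of cells. Without thinning there were 10 such cells, against a product of 46.2. In LOF, 6 thinned fibroblasts at E14.5 and 21 at E13.5 held both, against products of 16.9 and 51.5. Co-detection was below the product in all 6 libraries.

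Agtr2 was detected with each of them more often than the product. Of Ren1 cells, 80.00% to 91.7% also had an Agtr2 UMI, against 39.3% to 69.7% of cells without Ren1. Of Agtr2 cells, 4.47% to 20.98% had a Nppc UMI, against 1.76% to 4.98% of cells without Agtr2. The ratio to the product was 1.23 to 2.30 for Ren1 with Agtr2 and 1.23 to 2.05 for Agtr2 with Nppc, above 1 in 6 of 6 libraries each. Cells of a library share its depth and free RNA, so these are descriptions.

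Other dermal genes divided the 3 members further. Clu and Wnt2 were set beside Ren1, and Acta2 beside Nppc, with earlier results of these libraries known. Their associations are descriptions and lend no support. Fibroblasts with a UMI of Clu, the gene for clusterin, had Ren1 at 69.01 CPM in E14.5 LOF and 77.1 and 80.1 CPM in its controls, against 9.77, 2.93 and 1.16 CPM in cells without Clu, in the same order. At E13.5 Ren1 with Clu was at 159 CPM in LOF and 59.4 and 29.2 CPM in controls, against 43.6, 13.02 and 6.30 CPM without. Among Clu-negative cells Ren1 was higher in LOF than in both controls at each stage, and among Clu-positive cells it was higher at E13.5. The E14.5 values of Clu-positive cells, 69.01 against 77.1 and 80.1 CPM, were close. No interval is given for them, so no order is read from them. Clu itself was at 61.1 CPM in E14.5 LOF fibroblasts, against 18.03 and 22.1 CPM, and at 119 CPM in E13.5 LOF, against 37.9 and 39.5 CPM (log2 1.55, edgeR adjusted p = 0.299).

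**Figure D4:**
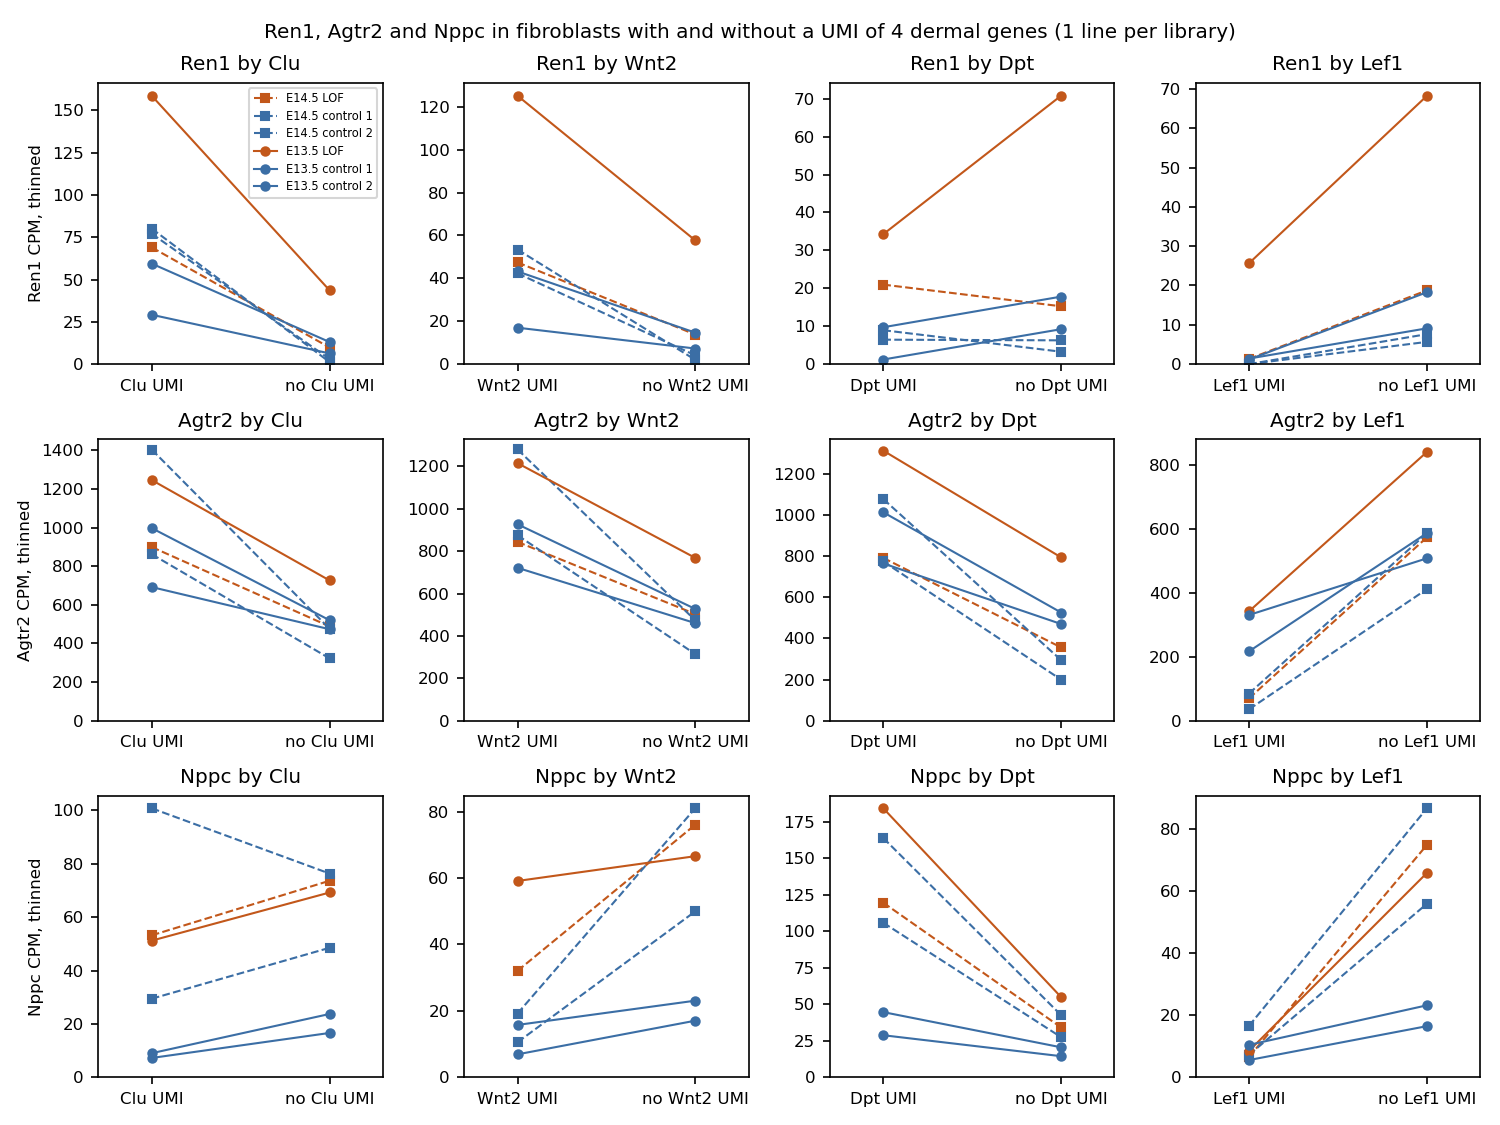
CPM of Ren1, Agtr2 and Nppc (rows) in thinned fibroblasts with and without a UMI of Clu, Wnt2, Dpt or Lef1 (columns), 1 line per library, LOF in orange, controls in blue, E13.5 solid and E14.5 dashed. Ren1 is higher with Clu and with Wnt2 in every library, and all 3 genes are lower with Lef1 in every library. Clu and Wnt2 were chosen with earlier results of these libraries known.

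Lef1, a nuclear partner of beta-catenin, marked fibroblasts poor in all 3 genes. Ren1 was at 0 to 25.6 CPM with a Lef1 UMI and 5.64 to 68.2 CPM without, lower with Lef1 in each library. The share of thinned fibroblasts with Lef1 was 5.95% in E14.5 LOF, against 17.1% and 13.3%, and 0.878% in E13.5 LOF, against 6.36% and 7.25%. In Lef1-negative fibroblasts alone Ren1 was at 18.7 CPM in E14.5 LOF, against 7.61 and 5.64 CPM, and at 68.2 CPM in E13.5 LOF, against 18.3 and 9.09 CPM.

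Wnt2, a gene for a secreted Wnt ligand, divided them as well. Ren1 was at 16.98 to 125 CPM with a Wnt2 UMI and 1.95 to 57.6 CPM without, higher with Wnt2 in each library, and Nppc at 6.94 to 59.1 CPM with and 17.1 to 81.03 CPM without, lower with Wnt2 in each library.

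Dpt, the matrix gene dermatopontin, went with Agtr2 and Nppc in 6 of 6 libraries. Nppc was at 119.6 CPM in Dpt-positive fibroblasts of E14.5 LOF and 106 and 164 CPM of its controls, against 34.2, 27.6 and 42.6 CPM in Dpt-negative cells, in the same order. At E13.5 it was at 184 CPM in LOF and 44.7 and 28.9 CPM in controls with Dpt, against 54.97, 20.6 and 14.5 CPM without.

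The contractile gene Acta2 went with Nppc more weakly, at 76.6 CPM of Nppc in Acta2-positive against 59.8 CPM in Acta2-negative fibroblasts of E13.5 LOF, and higher with Acta2 in 6 of 6 libraries. The contractile genes Acta2, Tagln, Myl9, Cnn1 and Tpm2 had a median log2 fold change of -2.43 for E14.5 over E13.5 in control fibroblasts, beside 0.03 over all genes, with no call (edgeR adjusted p = 0.0567 to 0.204). Nppc had the opposite direction between the stages.

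The homeobox genes Meox1 and Pitx1 also had higher CPM in each LOF library than in both controls of its stage, and their part in the Ren1 values was not tested. Meox1, a gene of somites, was at 34.4 CPM in E14.5 LOF, against 7.80 and 2.95 CPM, and at 146 CPM in E13.5 LOF, against 40.3 and 15.7 CPM. Pitx1, a hindlimb gene, was at 6.05 CPM in E14.5 LOF, against 2.34 and 1.17 CPM, and at 88.3 CPM in E13.5 LOF, against 41.4 and 9.06 CPM. Meox1 had no call (log2 2.50, edgeR adjusted p = 0.299). In Meox1-negative fibroblasts Ren1 was at 17.8 CPM in E14.5 LOF, against 6.01 and 4.94 CPM, and at 67.1 CPM in E13.5 LOF, against 16.3 and 8.23 CPM. At these levels of Meox1 many cells that express it have no UMI after thinning, so this split does not separate them.

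Within E13.5 LOF, fibroblasts with an eGFP UMI, 37.7% after thinning, had Ren1 at 87.6 CPM, against 55.9 CPM in those without. Agtr2 was at 924 CPM with eGFP, against 782 CPM without, and Nppc at 64.7 against 65.9 CPM. Within E14.5 LOF Ren1 was at 19.02 CPM with eGFP, against 16.5 CPM without. In the replicate 2 controls Ren1 was at 2.11 CPM with eGFP against 5.74 CPM without at E14.5, and at 5.84 against 9.57 CPM at E13.5. All fibroblasts of these libraries held 85 and 208 Ren1 UMIs before thinning, in the same order. The values with eGFP thus rest on few counts and have no interval.

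The genes most like each member were ranked by mean correlation across fibroblasts of the 2 E13.5 controls, among 8960 genes. Agtr2 was most like Dlk1, an imprinted gene of fetal mesenchyme, with r of 0.72 to 0.74 in the E14.5 libraries and 0.39 to 0.56 at E13.5. The transcription factor gene Osr1 had the reverse order, 0.13 to 0.18 at E14.5 and 0.37 to 0.49 at E13.5. Ren1 was most like Col14a1, S100a6, Fxyd7, Clu and Apod, with r of at most 0.37 in any library, and Fxyd7 had only 0.03 to 0.07 at E14.5. Cells share their library's depth and free RNA, so these r values are descriptions.

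**Figure D5:**
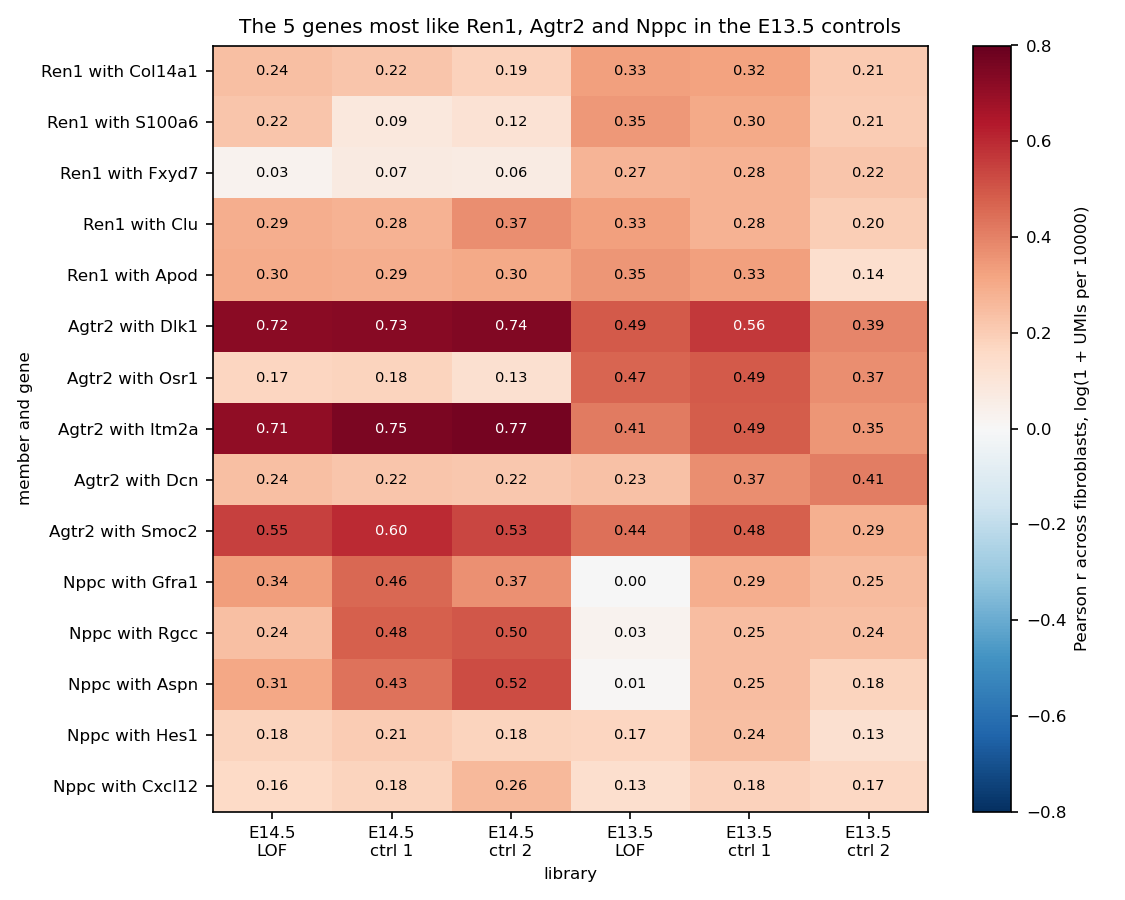
Pearson correlation across fibroblasts, of log(1 + UMIs per 10000), between Ren1, Agtr2 or Nppc and the 5 genes most like each in the E13.5 controls (rows), in the 6 libraries (columns). Agtr2 with Dlk1 reaches 0.72 to 0.74 in the E14.5 libraries, and Nppc with Gfra1, Rgcc and Aspn is at 0.00 to 0.03 in E13.5 LOF.

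The 5 genes most like Nppc in the E13.5 controls divided in E13.5 LOF. With Gfra1, a receptor of GDNF, r was 0.34 in E14.5 LOF, 0.46 and 0.37 in its controls, 0.00 in E13.5 LOF and 0.29 and 0.25 in its controls. With Aspn, a small proteoglycan gene, r was 0.01 in E13.5 LOF and 0.18 to 0.52 in the other 5 libraries. Hes1, a target of Notch, was at 0.17 in E13.5 LOF and 0.13 to 0.24 in the other 5, and the chemokine gene Cxcl12 at 0.13 and 0.16 to 0.26. Among the genes most like Nppc in E13.5 LOF, chosen after its values were seen, were the chemokine gene Cxcl14 at 0.38 and the R-spondin gene Rspo1 at 0.36, which had 0.04 to 0.13 and -0.06 to 0.07 in the other 5 libraries. Dpt was also among them, at 0.29 in E13.5 LOF and 0.31 to 0.34 in the E14.5 libraries.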

How the data were processed

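Single-cell 3′ libraries were made from dissociated skin sorted after DAPI staining, per the labels' protocols. The deposited matrices hold raw UMI counts per gene and barcode, made with the tools Cell Ranger and Seurat on build mm10, which is GRCm38, per the submitters' processing notes. Groups came from the labels. Members and gene lists were chosen with earlier results of these data known. All 9 members are named. Class thresholds were set after seeing the files. Cells with markers of 2 classes, or of a class other than pericyte or chondrocyte together with 15 collagen UMIs, were left out, which stood for doublet removal. Counts were summed per library and class and tested with edgeR 4.0.16 (quasi-likelihood, robust, TMM, filterByExpr; R 4.3.3), with Benjamini-Hochberg adjustment over all genes tested. Stage used the 4 controls, genotype all 6 libraries with stage as covariate, and class contrasts a library block. DESeq2 1.42.0 and other settings were alternatives. Shares used cells thinned to 3000 UMIs (seed 1). Intervals, at 95%, are exact Poisson, conditional or binomial and cover counting error only, and the limit for a count of 0 is 3 counts. Embryos are pooled, so p-values measure spread between libraries. Barcodes were kept with at least 1000 UMIs, 500 genes and at most 10% mitochondrial UMIs. 1 of the listed pathway genes is not reported here.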

Additional observations from a re-analysis of the deposited data

Results flagged for a closer look

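Npr1 in fibroblasts moved in opposite directions at the 2 stages, a difference that was not tested. It was at 1.44 CPM in E14.5 LOF, below both controls (1.65 and 1.78 CPM), and at 1.26 CPM in E13.5 LOF, above both controls (0.655 and 0.670 CPM). Ace did so on a handful of counts, also not tested, at 0.144 CPM (5 UMIs) in E14.5 LOF, against 3 and 0 UMIs in its controls, and 0 in E13.5 LOF, against 3 and 1 UMIs.

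Reporter reads appeared in libraries labelled WT. eGFP in fibroblasts was at 92.9 CPM in E14.5 control 2 and 119 CPM in E13.5 control 2. tdTomato in keratinocytes was at 251 CPM in E14.5 control 2 and at 1020 and 822 CPM in E13.5 controls 1 and 2. Whether these embryos carried other alleles was not tested.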

How the results depend on the processing

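The count of genes called by stage, 0 in edgeR (2501 at an unadjusted p under 0.05), was 895 with DESeq2, 24 with RLE size factors, 631 with no low-count filter, 1924 with the inferred batch (all 6 libraries, stage resting on the replicate 2 pair, 1 library per stage) and 298 to 3272 with 1 library left out, lowest without E14.5 control 1 and highest without E14.5 control 2. By genotype, also 0 in edgeR (1226 unadjusted), it was 274 with DESeq2, 2 with RLE, 7 with no filter, 349 with the batch, 236 without both replicate 2 controls, an alternative chosen after seeing the data, and 0 to 1 with 1 library left out. The genotype fits with the batch and without both replicate 2 controls rest on the same comparison, LOF against control 1 of its stage. Controls of the 2 stages share replicate numbers and no stated source (r of their deviations 0.34 over 14320 genes, 2 pairs). With the replicate block the stage count was 954 and the genotype count 0. Counts of the class contrasts stayed within 1.5 times. The cause of these differences was not tested.

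Of 265 alternative fold changes of members, 238 kept direction and side of the threshold. Those that reversed were Npr3 by stage (leave-one-out -1.33 to 0.31, reversed without E14.5 control 2), Npr1 by genotype (-0.32 to 0.88, reversed without E13.5 LOF) and Atp6ap2 at values near 0. By genotype Atp6ap2 was -0.015 with DESeq2, -0.017 with RLE, -0.023 with the gate at 30, -0.030 with no class taken out, and -0.077 to 0.078 with 1 library left out, negative without E13.5 control 2, E14.5 control 1 or E13.5 LOF. In endothelial cells it was -0.0062 with no filter and -0.026 to 0.12 with 1 library left out, negative without E13.5 control 2. Having 1 LOF library per stage limits every genotype value.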
